A study of Homo sapiens with 12 samples.

Results

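The genes described here are 10 immediate early transcription factor genes: the AP-1 genes FOS, FOSB, FOSL1, FOSL2, JUN and JUNB, the zinc finger gene EGR1, and the orphan nuclear receptor genes NR4A1, NR4A2 and NR4A3. They were chosen by name, with earlier results of these data known. Every probe that the platform annotation gives to 1 of these symbols was taken, which came to 14 of the 47302 probes and 10 of the 20040 named genes on the array. The study measured gene expression with Illumina HT-12 bead arrays in LM cells, a subline of the human triple-negative breast cancer line MDA-MB-231 that was selected for lung metastasis. BHLHE40-KD cells are LM cells that stably express 1 short hairpin RNA against the hypoxia-inducible transcription factor BHLHE40, and LM-EV cells carry the control vector. Both lines were kept in medium with puromycin, and each was left untreated or held for 6 h or 48 h in hypoxia at 1% O2. The sample labels join this with low glucose at 1 mg/ml, and the methods of the study do not. Hypoxia below means this treatment as labelled, since no array separates low oxygen from low glucose. Both times are set against 1 untreated group of each line, so time in culture cannot be told apart from the treatment. Each of the 6 groups had 2 arrays, 1 on each of 2 slides. With 1 knockdown line and 1 control line, the arrays compare these lines, and a p-value measures only the spread between these arrays.

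Immediate early genes are switched on within minutes of a signal at the cell surface or of cell stress, without new protein synthesis, because the factors that drive them are already in the cell. FOS and JUN family proteins pair through leucine zippers into AP-1 dimers, which bind short DNA elements in genes for proteases, cytokines and growth factors, and the makeup of the dimer sets how strongly it acts. EGR1 binds GC-rich sites, NR4A proteins act without a known hormone, and FOSL1 with JUN is known for its high activity in mesenchymal breast cancer cells such as MDA-MB-231.

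Promoter sequences were available from RefSeq for 8 of the 10 genes (GRCh38.p14, 250 bases before to 50 after the transcription start site, 9 promoters since NR4A1 has 2). FOSL1 and NR4A2 had no entry. The promoters of EGR1, JUN, FOSL2 and JUNB are shown because these genes differed between the lines in the results that follow. Capitals mark matches on either strand to 4 motifs: the CArG box bound by serum response factor, the AP-1 element TGANTCA, the longer AP-1 and CREB element TGACNTCA, and the class B E-box CACGTG that BHLHE40 binds.
EGR1 promoter, chr5:138465229-138465528, plus strand: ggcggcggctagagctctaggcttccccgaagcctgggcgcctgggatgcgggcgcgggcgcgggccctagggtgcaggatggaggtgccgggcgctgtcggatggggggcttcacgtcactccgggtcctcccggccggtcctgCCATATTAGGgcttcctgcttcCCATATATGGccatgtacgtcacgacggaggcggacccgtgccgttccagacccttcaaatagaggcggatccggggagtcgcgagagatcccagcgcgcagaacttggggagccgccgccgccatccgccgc
JUN promoter, chr1:58783998-58784297, minus strand: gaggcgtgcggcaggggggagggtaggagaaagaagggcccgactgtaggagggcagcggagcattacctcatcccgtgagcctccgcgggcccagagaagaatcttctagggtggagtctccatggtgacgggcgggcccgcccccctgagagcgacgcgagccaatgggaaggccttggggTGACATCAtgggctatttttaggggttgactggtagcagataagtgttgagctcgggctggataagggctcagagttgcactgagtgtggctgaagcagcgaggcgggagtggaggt
FOSL2 promoter, chr2:28392608-28392907, plus strand: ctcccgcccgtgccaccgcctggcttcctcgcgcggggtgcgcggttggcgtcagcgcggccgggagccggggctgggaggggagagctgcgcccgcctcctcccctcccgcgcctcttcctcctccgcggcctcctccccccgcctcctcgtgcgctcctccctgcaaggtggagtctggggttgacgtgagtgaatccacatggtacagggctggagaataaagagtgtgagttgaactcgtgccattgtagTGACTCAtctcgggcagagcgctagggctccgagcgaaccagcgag
JUNB promoter, chr19:12791236-12791535, plus strand: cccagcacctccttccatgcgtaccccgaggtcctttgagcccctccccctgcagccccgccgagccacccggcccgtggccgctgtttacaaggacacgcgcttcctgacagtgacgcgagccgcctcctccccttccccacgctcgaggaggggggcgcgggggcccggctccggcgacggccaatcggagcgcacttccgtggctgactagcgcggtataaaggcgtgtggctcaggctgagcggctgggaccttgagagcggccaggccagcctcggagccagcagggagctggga
The EGR1 promoter held 2 CArG boxes, which began 105 and 83 bases before the start site. The JUN promoter held TGACATCA, which began 67 bases before the start site, and the FOSL2 promoter held TGACTCA, which began at base 5 after it. No match to the 4 motifs was found in the other 6 promoters, JUNB included, and CACGTG was in none of the 9. Of the 35116 promoters of this length in the table, 1.29% held a CArG box, 7.71% TGANTCA, 7.72% TGACNTCA and 7.26% CACGTG. The motifs did not overlap in these promoters. A match is a run of letters and not a measured binding site.

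On each array 20298 to 21830 probes were detected (detection p under 0.05 against the negative control beads), down to signals of 42.2 to 51.8. All 6 genes expected in MDA-MB-231 cells, such as VIM and CD44, were detected on all 12 arrays. Of 6 epithelial and luminal genes expected to be absent, ERBB3 and EPCAM were also detected on all 12 arrays, GATA3 on 11, CDH1 on 2, ESR1 on 1 and PGR on none. The summed signal of these 6 was 2926 to 3928 in BHLHE40-KD arrays and 1828 to 2866 in LM-EV arrays, with no overlap. EPCAM, with signals of 1556 to 3650, made up most of this sum. Of the 3 of these genes that were tested, 3 were higher in BHLHE40-KD untreated, 2 at 6 h and 1 at 48 h. Of 10 markers of other cell types on the array, CD3E, CDH5, VWF and COL3A1 were detected on no array, PTPRC on 1, DCN on 2, PDGFRB on 5, COL1A1 on 6, and CD14 and PECAM1 on all 12. The summed leukocyte signal was 91 to 279 in BHLHE40-KD arrays and 523 to 894 in LM-EV arrays, and CD14, which made up most of it, was lower in BHLHE40-KD at each time (log2 fold change of -2.09, -3.01 and -1.74 untreated, at 6 h and at 48 h). The summed endothelial signal was 409 to 779 in BHLHE40-KD arrays and 214 to 407 in LM-EV arrays, and the fibroblast signal 71 to 172 and 110 to 347. The part of these markers in the differences between the lines was not tested. Among 10 tested HIF target genes, a check of the treatment, DDIT4 rose at 6 h by 1.40 on the log2 scale in BHLHE40-KD and 1.88 in LM-EV, and NDRG1 rose at 48 h by 2.14 and 2.12. DDIT4 was the 1 HIF target called at 6 h in each line (5.16% of all tested genes were called in BHLHE40-KD and 0.559% in LM-EV). NDRG1 was among the 2 called at 48 h in each (5.18% and 1.88% of all genes). The median change of the list was 0.48 to 0.56, where that of all genes was -0.03 to 0.

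BHLHE40 itself, the target of the hairpin, had normalized signals of 1771 and 1444 (slides 1 and 2) untreated, 3410 and 4324 at 6 h, and 3198 and 3585 at 48 h in BHLHE40-KD cells. In LM-EV cells the signals were 2992 and 2716, 4283 and 6795, and 3365 and 6482 at the same times. Within each slide and time the BHLHE40-KD value was the lower, but after hypoxia it lay above both untreated LM-EV arrays. The difference between the lines had a log2 fold change of -0.83 untreated, -0.49 at 6 h and -0.46 at 48 h and did not pass the threshold (limma, adjusted p = 0.0894, 0.286 and 0.322). The untreated difference reached 1.5-fold on both slides (-0.76 and -0.91), the rule of the study, and those at 6 h and 48 h did not. For the protein, the study reported by immunoblotting that the hairpin lowered BHLHE40 in LM cells, at baseline and in hypoxia.

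Of the 10 genes, 8 had a probe detected on both arrays of a group and were tested. FOS, FOSL1, FOSL2, JUN, JUNB, EGR1 and NR4A2 were detected on all 12 arrays, and FOSB on 6. NR4A1 and NR4A3 did not enter the tests. The 3 probes of NR4A3 were detected on no array, with signals of -50.5 to 26.9. The first NR4A1 probe was detected on no array and the second on 4 of 12, never on both arrays of a group. A gene was called changed at a Benjamini-Hochberg adjusted p under 0.05 over the 12336 genes tested in a comparison, by limma on log2 signals with the slide as a block.

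**Figure D1:**
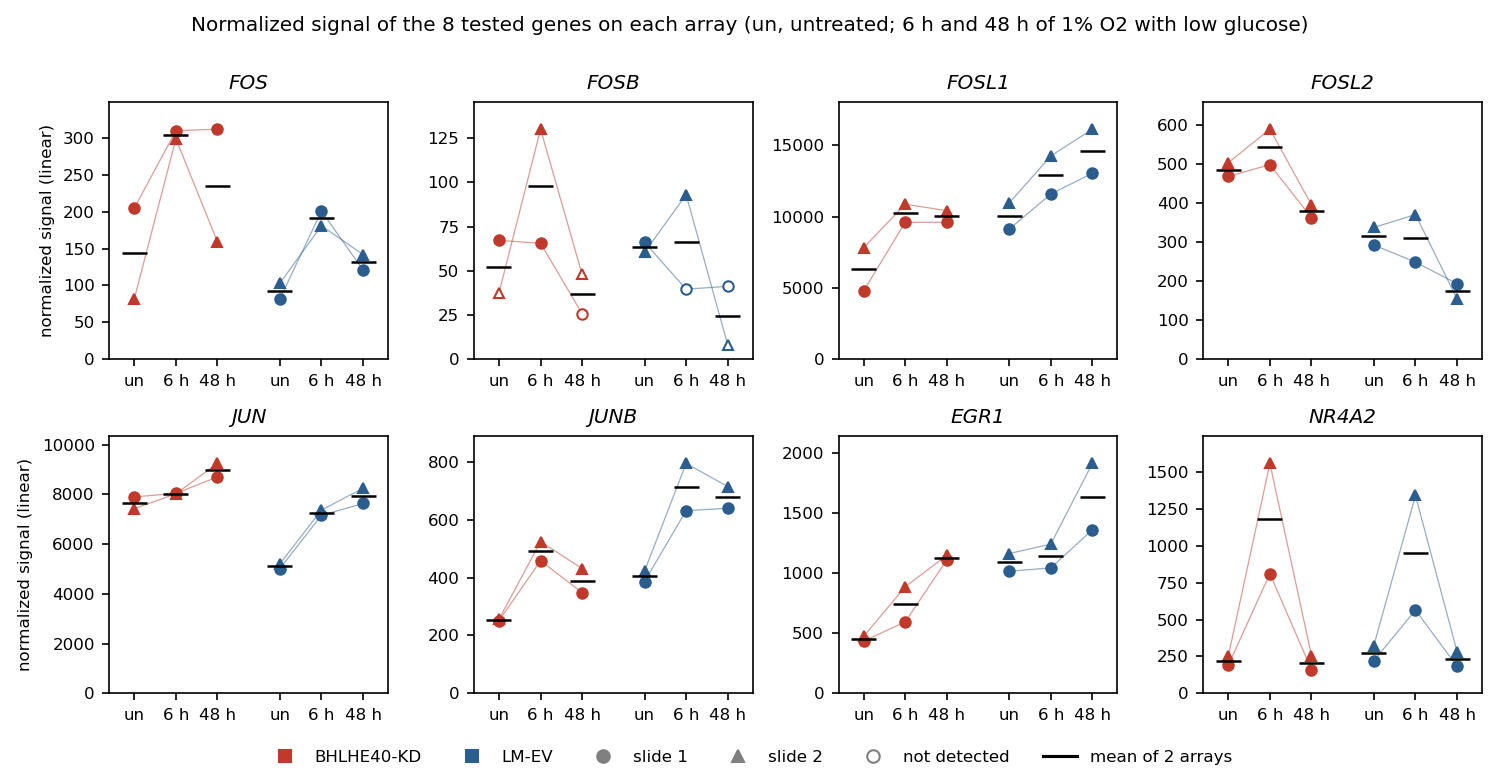
Normalized signal (linear axis from 0) of the 8 tested genes on each of the 12 arrays, with BHLHE40-KD cells left and LM-EV cells right. Cells were untreated or held for 6 h and 48 h in hypoxia, which the labels join with low glucose. Circles and triangles are slides 1 and 2, open symbols are arrays on which the probe was not detected, thin lines join arrays of 1 slide and black bars are means of 2 arrays. NR4A2 peaks at 6 h in both lines, while the untreated BHLHE40-KD arrays are the lowest of all 12 for FOSL1, JUNB and EGR1.

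After 6 h of hypoxia with low glucose, NR4A2 and JUNB were called higher in both lines and FOSL1 in BHLHE40-KD cells. No tested gene of the 10 was called lower. In BHLHE40-KD cells 3 of the 8 tested genes were called at 6 h, where 5.16% of all tested genes were. In LM-EV cells 2 of 8 were called, against 0.559% of all. The median log2 change of the 8 genes was 0.81 in BHLHE40-KD and 0.43 in LM-EV, where the median of all genes was -0.02 and 0. By 48 h NR4A2 was back near its untreated signal, JUNB stayed raised in both lines, EGR1 and FOSL1 were raised in BHLHE40-KD cells and JUN in LM-EV cells. The calls at 48 h against untreated were 3 of 8 in BHLHE40-KD (5.18% of all genes) and 2 of 8 in LM-EV (1.88% of all genes). Between 48 h and 6 h NR4A2 was the 1 gene called, lower at 48 h in each line (1.93% of all genes were called in BHLHE40-KD and 0.227% in LM-EV). Without the slide block, JUNB at 6 h and EGR1 at 48 h in BHLHE40-KD were the only ones of these calls that stayed. RNA of a whole culture cannot tell more cells that express a gene from more RNA per cell.

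NR4A2 (NURR1), a nuclear receptor that acts without a ligand and that cAMP and stress signals induce quickly, had the largest change of the 8 genes. Its signals in BHLHE40-KD cells were 190 and 252 untreated, 810 and 1556 at 6 h, and 160 and 255 at 48 h (slides 1 and 2). In LM-EV cells they were 221 and 324, 564 and 1339, and 183 and 283. All 4 arrays at 6 h lay above the 8 others, the slide 2 array was the higher in each of the 6 groups, and the untreated and 48 h arrays overlapped in both lines. The 6 h change was 2.36 on the log2 scale in BHLHE40-KD (SE 0.20, 5.13-fold, limma adjusted p = 0.00655), or 2.09 within slide 1 and 2.63 within slide 2. In LM-EV it was 1.70 (SE 0.20, 3.25-fold, adjusted p = 0.0308), or 1.35 and 2.05 within the slides. From 6 h to 48 h the change was -2.47 in BHLHE40-KD (adjusted p = 0.00864) and -1.93 in LM-EV (adjusted p = 0.0268). At 48 h against untreated it was -0.11 in BHLHE40-KD (95% interval -0.59 to 0.36) and -0.23 in LM-EV (-0.71 to 0.24), neither called.

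All 4 NR4A2 calls were lost without the slide block (adjusted p of 0.0506 to 0.223) and in a fit of the arrays of the 2 groups alone (adjusted p of 0.255 to 0.347), with the same changes. Each was also lost when some single arrays were left out. In every comparison of times within a line, fits without any 1 array called fewer of all genes too. This held also for arrays of the groups not compared, where the change stayed the same. A call lost in this way, here or for the genes below, is therefore not particular to that gene. The 6 h call in BHLHE40-KD was lost without the slide 2 untreated array alone (2.16, adjusted p = 0.0508), and the 48 h against 6 h call without the slide 1 array at 6 h or either array at 48 h (-2.59 to -2.43, adjusted p of 0.0516 to 0.0704). In LM-EV the 6 h call was lost without any 1 of the 12 arrays (1.40 to 2.00, adjusted p of 0.0502 to 0.218), and the 48 h against 6 h call without any but the slide 1 array at 6 h (adjusted p of 0.0523 to 0.154 where lost). The second NR4A2 probe gave dimmer signals of the same course, 94.0 and 49.2, 260 and 727, and 51.2 and 89.1 in BHLHE40-KD, and 54.2 and 108, 193 and 501, and 65.1 and 137 in LM-EV. When every detected probe was tested, its 6 h change was 2.68 in BHLHE40-KD (adjusted p = 0.0399) and 2.02 in LM-EV (adjusted p = 0.126).

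JUNB, a JUN family protein that is a weaker activator than JUN and can oppose it, was the 1 member called at both times in both lines. In BHLHE40-KD cells its signals were 251 and 256 untreated, 458 and 524 at 6 h, and 348 and 431 at 48 h. In LM-EV cells they were 386 and 422, 631 and 794, and 639 and 714. Within each line no treated array overlapped the untreated arrays, and in BHLHE40-KD the 48 h arrays lay below the 6 h arrays while in LM-EV they overlapped. In BHLHE40-KD JUNB rose by 0.95 and 0.61 at the 2 times (SE 0.12 each, adjusted p = 0.0109 and 0.0361), and in LM-EV by 0.81 and 0.74 (adjusted p = 0.0425 and 0.0395). Without single arrays the 6 h call in BHLHE40-KD was lost 3 times in 12, without the slide 2 untreated array (0.86, adjusted p = 0.0777) or either 6 h array (0.95 each, adjusted p = 0.0692 and 0.0515). The other 3 were lost without any 1 of the 12 arrays, with changes of 0.52 to 0.71 at 48 h in BHLHE40-KD and of 0.73 to 0.89 at 6 h and 0.71 to 0.78 at 48 h in LM-EV.

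FOSL1 (FRA-1), a FOS family protein that lacks the strong activation domain of FOS, was a bright probe on all arrays. Its signals in BHLHE40-KD cells were 4794 and 7819 untreated, 9597 and 10865 at 6 h, and 9597 and 10409 at 48 h. In LM-EV cells they were 9121 and 10948, 11573 and 14245, and 13034 and 16120. The 4 treated BHLHE40-KD arrays lay within the range of the untreated LM-EV arrays, and the untreated BHLHE40-KD arrays were the farthest apart of the 6 groups (SD 0.50 on the log2 scale). In BHLHE40-KD FOSL1 rose by 0.74 and 0.71 at the 2 times (SE 0.16 each, adjusted p = 0.043 and 0.0477), with 1.00 at both times within slide 1 and 0.47 and 0.41 within slide 2. Both calls were lost without any 1 of the 12 arrays (0.50 to 0.97 at 6 h and 0.47 to 0.94 at 48 h, adjusted p of at least 0.0593 and 0.0554). In LM-EV the changes were 0.36 (adjusted p = 0.288) and 0.54 (adjusted p = 0.114).

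JUN, the main DNA-binding partner of FOS proteins and a target of JNK, had signals of 7901 and 7427, 8038 and 8022, and 8704 and 9245 in BHLHE40-KD cells untreated, at 6 h and at 48 h. In LM-EV cells they were 5019 and 5209, 7158 and 7371, and 7634 and 8245. The 2 untreated LM-EV arrays were the lowest of the 12 and overlapped no other group. In LM-EV JUN rose by 0.63 at 48 h (SE 0.11, 1.55-fold, adjusted p = 0.0432) after a 6 h change of 0.51 (adjusted p = 0.0794). The 48 h call was lost without any 1 of the 12 arrays (0.59 to 0.68). In BHLHE40-KD the change was 0.07 at 6 h (95% interval -0.18 to 0.32) and 0.23 at 48 h (-0.02 to 0.48).

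EGR1, a zinc finger activator that growth factors induce through ERK and serum response factor, had its highest signals at 48 h in both lines. Its signals were 436 and 475, 596 and 889, and 1113 and 1151 in BHLHE40-KD cells untreated, at 6 h and at 48 h. In LM-EV cells they were 1018 and 1166, 1046 and 1244, and 1364 and 1917. In BHLHE40-KD the 3 times did not overlap, and the 48 h arrays fell between the 2 untreated LM-EV arrays. EGR1 rose by 1.32 at 48 h in BHLHE40-KD (SE 0.16, 2.49-fold, adjusted p = 0.0129), after a 6 h change of 0.68 (adjusted p = 0.0537). The 48 h call was lost without the slide 2 untreated array (1.22, adjusted p = 0.0694) or either 48 h array (1.18 and 1.46, adjusted p = 0.0583 and 0.0657). In LM-EV the change was 0.07 at 6 h (95% interval -0.30 to 0.43) and 0.57 at 48 h (adjusted p = 0.105).

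FOS, FOSB and FOSL2 were called at neither time in either line. FOS, the first AP-1 gene to respond to serum, had signals of 205 and 81.8, 310 and 299, and 312 and 159 in BHLHE40-KD cells, and of 81.7 and 103, 201 and 181, and 121 and 142 in LM-EV cells, untreated, at 6 h and at 48 h. Both 6 h arrays lay above both untreated arrays in each line, but the untreated BHLHE40-KD arrays were far apart. The 6 h change was 1.23 in BHLHE40-KD (SE 0.40, adjusted p = 0.132) and 1.06 in LM-EV (adjusted p = 0.240). FOSB, a FOS relative whose short splice form outlasts the stimulus, was close to background, with signals of 67.2 and 37.5, 65.5 and 130, and 25.7 and 47.9 in BHLHE40-KD and 66.1 and 60.4, 39.6 and 93.0, and 41.2 and 8.13 in LM-EV. It was not well above background on any of the 4 arrays at 48 h. Against the lowest detected signal of those arrays, the mean at 6 h in BHLHE40-KD was 1.97-fold higher and that of untreated LM-EV 1.31-fold higher. Neither fall to 48 h was called (limma, adjusted p = 0.266 and 0.296). The intervals of the log2 changes, -2.87 to 0.08 and -2.78 to 0.18, spanned both signs. FOSB entered the tests only because both arrays of these reference groups, BHLHE40-KD at 6 h and untreated LM-EV, were detected. Lower signals in other groups were thus favoured by the filter, and no fall of FOSB is concluded.

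FOSL2 (FRA-2), which like FOSL1 lacks the activation domain of FOS, had signals of 469 and 504, 499 and 590, and 363 and 396 in BHLHE40-KD cells, untreated, at 6 h and at 48 h. In LM-EV cells they were 293 and 338, 249 and 371, and 194 and 155. The 48 h arrays were the lowest of each line. The change at 48 h was -0.36 in BHLHE40-KD (95% interval -0.82 to 0.10) and -0.86 in LM-EV (SE 0.20, adjusted p = 0.0740), the largest negative 48 h change among the 7 genes detected on all arrays.

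**Figure D2:**
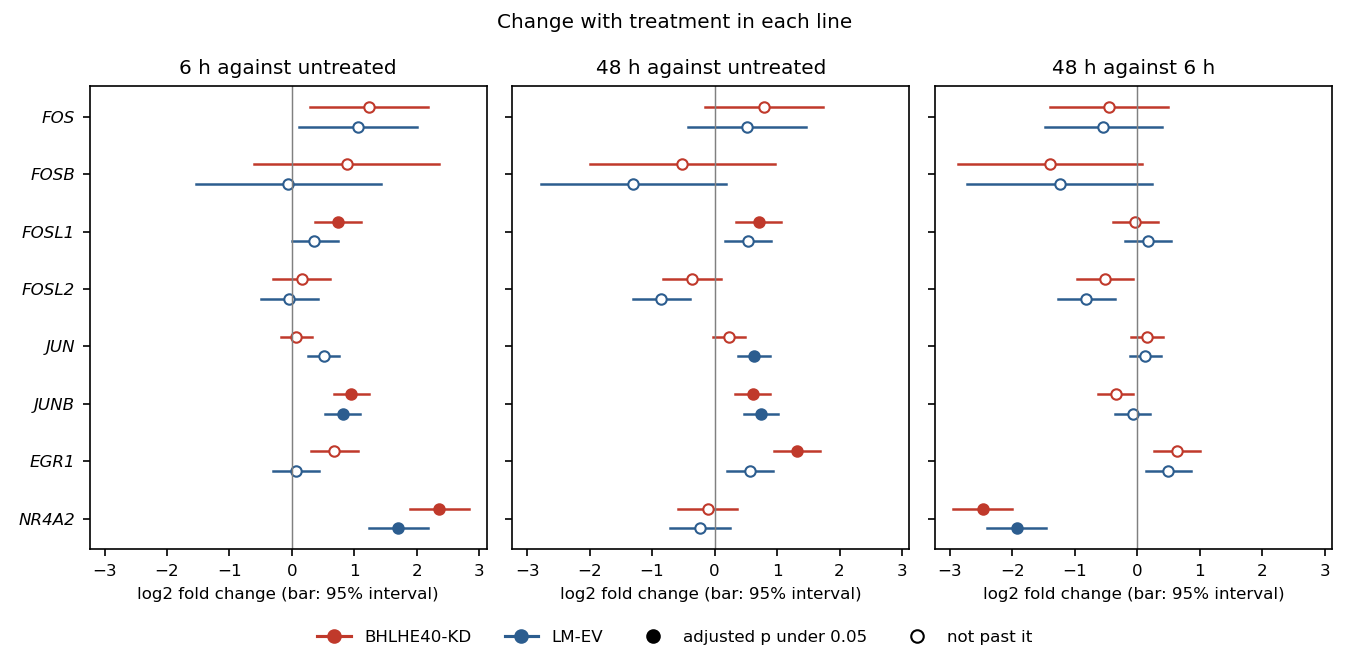
Log2 fold change of the 8 tested genes at 6 h and 48 h against untreated and at 48 h against 6 h, with BHLHE40-KD above LM-EV for each gene. Bars are limma's 95% intervals and filled circles passed an adjusted p of 0.05. NR4A2 stands near 2.36 and 1.70 at 6 h and returns to -0.11 and -0.23 at 48 h, while EGR1 reaches 1.32 in BHLHE40-KD at 48 h.

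The comparison of the lines asked how these genes differ in cells with the BHLHE40 hairpin, with and without hypoxia. The RNA of BHLHE40 itself was lower in these cells within each slide and time, but was not called. In untreated BHLHE40-KD cells EGR1, FOSL1 and JUNB were lower and JUN was higher than in LM-EV cells, which made 4 of 8 called where 18.2% of all tested genes were. At 6 h EGR1 and JUNB were lower and FOSL2 was higher, 3 of 8 where 18.4% of all genes were called. At 48 h JUNB was lower and FOSL2 higher, 2 of 8 where 16.5% of all genes were called, so the share at 48 h was near that of all genes. JUNB was the 1 member called at all 3 times. Without the slide block the untreated call of FOSL1 and the 6 h calls of EGR1 and JUNB were lost. The comparisons with untreated cells and those between the lines share arrays.

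EGR1 had the largest difference in untreated cells. Its untreated signals of 436 and 475 in BHLHE40-KD lay far under the 1018 and 1166 of LM-EV, a log2 fold change of -1.26 (SE 0.16, 0.417-fold, adjusted p = 0.0027), which held without each of the 12 arrays (-1.36 to -1.17, adjusted p of at most 0.029). At 6 h it was -0.65 (adjusted p = 0.0293), a call lost without the slide 1 BHLHE40-KD array (-0.47, adjusted p = 0.157) or either LM-EV array (-0.63 and -0.67, adjusted p = 0.138 and 0.118). At 48 h it was -0.51 (adjusted p = 0.0644).

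JUNB was lower in BHLHE40-KD by a similar amount at each time, and the lines did not overlap at any of them. The log2 fold change was -0.67, -0.53 and -0.80 untreated, at 6 h and at 48 h (SE 0.12 each, adjusted p = 0.01, 0.0229 and 0.00573), the last of them 0.574-fold. The 48 h call held without each of the 12 arrays (-0.87 to -0.73, adjusted p of at most 0.0443). The untreated call was lost without the slide 2 BHLHE40-KD array or either LM-EV array (-0.71 to -0.57, adjusted p of 0.0579 to 0.0735), and the 6 h call without any of the 4 arrays compared (-0.61 to -0.45, adjusted p of 0.0713 to 0.14).

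FOSL2 was higher in BHLHE40-KD within each slide and time, with log2 fold changes of 0.63, 0.83 and 1.13 untreated, at 6 h and at 48 h (SE 0.20 each, adjusted p = 0.0632, 0.0265 and 0.00993), the last of them 2.18-fold. The 6 h call was lost without either BHLHE40-KD array or the slide 1 LM-EV array (0.58 to 0.89, adjusted p of 0.0922 to 0.158), and the 48 h call without either BHLHE40-KD array or the slide 2 LM-EV array (0.84 to 1.15, adjusted p of 0.0548 to 0.0578). The epithelial adhesion gene EPCAM was also higher in BHLHE40-KD (0.46, 0.52 and 0.75, adjusted p = 0.0508, 0.0328 and 0.0104), and its part in the FOSL2 difference was not tested. FOSL1 ran the other way, at -0.71, -0.33 and -0.54 (SE 0.16 each, adjusted p = 0.021, 0.184 and 0.0555). The untreated call of FOSL1 was lost without the slide 1 BHLHE40-KD array or either LM-EV array (-0.74 to -0.47, adjusted p of 0.0767 to 0.114). JUN was 0.58 higher in untreated BHLHE40-KD cells (SE 0.11, adjusted p = 0.0116), a call lost without the slide 1 BHLHE40-KD array or either LM-EV array (0.51 to 0.60, adjusted p of 0.0537 to 0.076), and the difference was 0.14 at 6 h and 0.18 at 48 h (95% intervals -0.11 to 0.40 and -0.07 to 0.43).

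By the rule of the study, a fold of at least 1.5 the same way on both slides, the members picked out differ in part. At 6 h FOS, JUNB and NR4A2 passed it in BHLHE40-KD (8.33% of all genes did) and in LM-EV (6.09%), all higher. At 48 h FOS and EGR1 passed in BHLHE40-KD (9.21%), both higher, and in LM-EV JUN and JUNB passed as higher and FOSB and FOSL2 as lower (7.69%). At 48 h against 6 h NR4A2 and FOSB passed in BHLHE40-KD (7.43%) and NR4A2 in LM-EV (4.97%), all lower. FOSB was undetected on every array at 48 h, so its folds here were taken against background. Between the lines EGR1 and JUNB passed as lower in untreated BHLHE40-KD cells (16.2%), FOS and FOSL2 as higher at 6 h (16.6%), and FOSL2 as higher and JUNB as lower at 48 h (15.2%).

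FOS, FOSB and NR4A2 were not called between the lines by limma. FOS had differences of 0.50, 0.67 and 0.77 with 95% intervals as wide as -0.44 to 1.44. For FOSB no direction can be given, since in each comparison at least 1 array was not above background, and at 48 h all 4 were not. NR4A2 had differences of -0.29 untreated, 0.37 at 6 h and -0.17 at 48 h, with intervals of -0.76 to 0.18, -0.10 to 0.84 and -0.64 to 0.30.

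**Figure D3:**
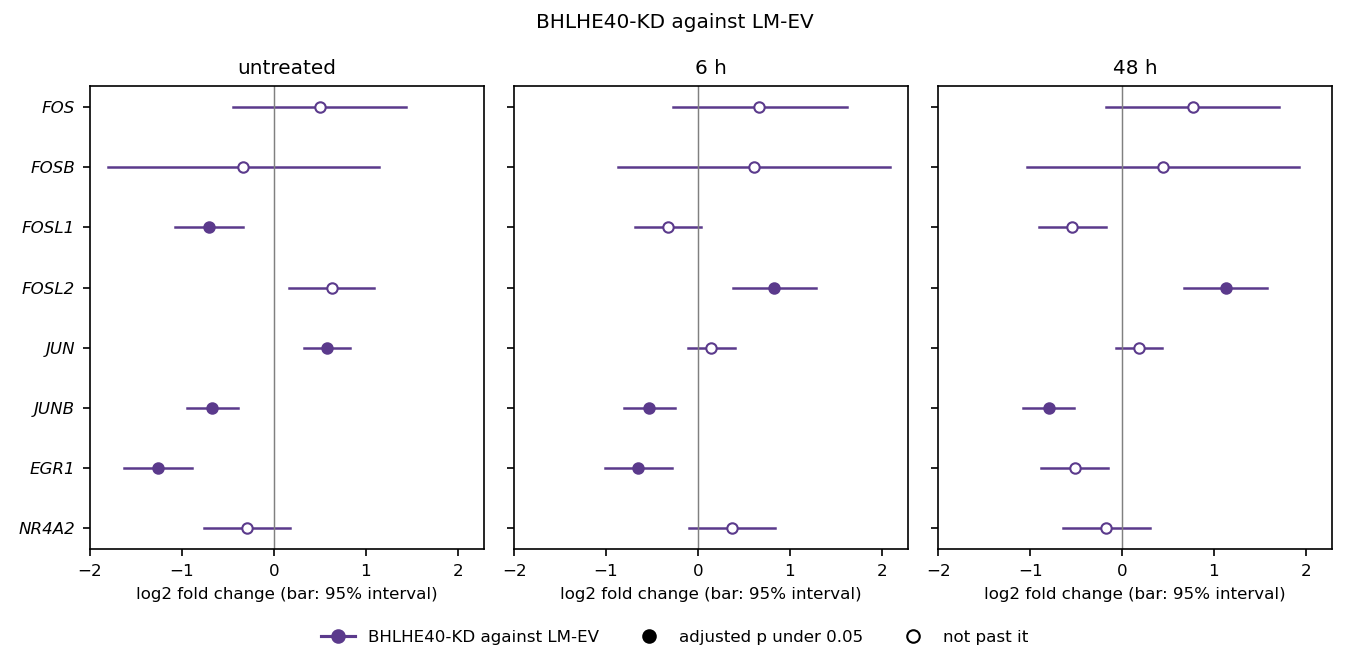
Log2 fold change of BHLHE40-KD against LM-EV for the 8 tested genes, with limma's 95% intervals. Cells were untreated or held for 6 h and 48 h in hypoxia, which the labels join with low glucose. Filled circles passed an adjusted p of 0.05. JUNB lies below 0 at each time (-0.67, -0.53 and -0.80) and FOSL2 above it (0.63, 0.83 and 1.13), while JUN stands apart from 0 in untreated cells alone (0.58).

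Whether hypoxia changed these genes differently in the 2 lines was tested as the difference of the changes. None of the 8 genes was called at 6 h, where 0.0243% of all genes were, or at 48 h, where 0% were. At an unadjusted p under 0.05 there were 2 of 8 at each time, EGR1 and JUN, where 6.13% of all genes at 6 h and 6.76% at 48 h were. The rule of 1.5-fold on both slides gave 1 at 6 h (5.52% of all genes) and 0 at 48 h (5.45% of all genes). The 1 was FOSB, which was undetected on the slide 2 untreated BHLHE40-KD array and on the slide 1 LM-EV array at 6 h, so its fold was taken against background. For EGR1 the difference of the changes (BHLHE40-KD minus LM-EV) was 0.61 at 6 h (95% interval 0.09 to 1.13, unadjusted p = 0.0264, adjusted p = 0.772) and 0.75 at 48 h (0.23 to 1.26, unadjusted p = 0.0111, adjusted p = 0.639). For JUN it was -0.44 (-0.79 to -0.08, adjusted p = 0.772) and -0.41 (-0.76 to -0.05, adjusted p = 0.707), and neither gene passed the threshold at either time. For NR4A2 the difference at 6 h was 0.66 (SE 0.29, -0.01 to 1.33, adjusted p = 0.817). This interval includes 0. For FOSL1 the difference was 0.38 at 6 h (-0.14 to 0.89, adjusted p = 0.848) and 0.17 at 48 h (-0.34 to 0.68, adjusted p = 0.922).

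Across the 12 arrays the members fell into patterns that are given as description only, since the arrays share groups and slides. With each slide centred, FOSL1 ran with JUNB (Pearson r = 0.91) and with EGR1 (0.87), FOSL2 ran against EGR1 (-0.82) and FOSL1 (-0.70), and FOS ran with JUN (0.65). Among 10144 genes detected on all arrays, those most like NR4A2 were KHDC4 (0.973), CREBRF (0.964) and WIPI1 (0.956). Those most like EGR1 were the matrix protein gene TNC (0.972), ABCA2 (0.96) and CLDN12 (0.955). Those most like JUNB were the G protein gene GNA15 (0.975), C9orf72 (0.963) and EPB41L2 (0.962), and like FOSL1 FAM221A (0.963), FEM1C (0.957) and NAMPT (0.956). JUN was closest to PLD3 (0.98), SEMA4B (0.963) and BAIAP2L1 (0.96), and FOSL2 to EPCAM (0.987), OIP5-AS1 (0.961) and BNIP2 (0.953). FOS was closest to FAM72D (0.953), UGCG (0.95) and the bZIP gene NFIL3 (0.938). The values of FOSB were lower, with SUMO1P3 at 0.862, SRSF11 at 0.853 and SMIM8 at 0.843.

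Among the other AP-1 and small bZIP genes (9 of 11 tested), ATF3, a stress-induced factor that pairs with JUN proteins, rose at 6 h by 1.36 in BHLHE40-KD (adjusted p = 0.0071) and 0.98 in LM-EV (adjusted p = 0.039), and fell between 6 h and 48 h in BHLHE40-KD by 0.87 (adjusted p = 0.0314). It was the 1 gene of this list called at 6 h in either line (5.16% of all genes were in BHLHE40-KD and 0.559% in LM-EV). At 48 h against untreated 1 was called in BHLHE40-KD, as lower (5.18% of all genes), and 0 in LM-EV (1.88%). The list's median at 6 h was 0.57 in BHLHE40-KD and 0.26 in LM-EV. Between the lines 1 gene of the list was called higher and 1 lower in untreated BHLHE40-KD cells (18.2% of all genes were called in either direction). At 6 h the counts were 1 and 0 (18.4%), and at 48 h 1 and 1 (16.5%). The list's median difference was -0.20 untreated, 0.13 at 6 h and -0.30 at 48 h. JUND, a broadly expressed JUN relative, was 0.48 higher in BHLHE40-KD than in LM-EV both at 6 h and at 48 h (adjusted p = 0.0379 and 0.0419). Of the EGR family and its NAB corepressors, NAB1 and NAB2 were tested and neither was called in a comparison.

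Of 30 other immediate early genes, 27 were tested. At 6 h 5 rose and 0 fell in BHLHE40-KD (5.16% of all genes were called), with a median of 0.38 where all genes had -0.02. They were the MAP kinase phosphatase genes DUSP1 (1.78, adjusted p = 0.0162) and DUSP5 (1.14, adjusted p = 0.0138), the survival gene MCL1 (1.27, adjusted p = 0.00734), the mRNA decay factor gene ZFP36 (1.15, adjusted p = 0.0173) and IER3 (0.74, adjusted p = 0.0275). In LM-EV MCL1 rose (1.05, adjusted p = 0.0354) and no other was called (0.559% of all genes were), with a median of 0.17 where all genes had 0. At 48 h 5 rose and 2 fell in BHLHE40-KD, where 5.18% of all genes were called. DUSP1 (1.49), ZFP36 (1.02), MCL1 (0.98), KLF6 (0.65) and IER5 (0.48) were higher, and the kinase gene PLK2 (-0.67, adjusted p = 0.0467) and the zinc finger gene KLF2 (-0.63, adjusted p = 0.0459) were lower. In LM-EV MCL1 again was the 1 called (0.92), where 1.88% of all genes were. Between the lines 5 were higher and 3 lower in untreated BHLHE40-KD cells (18.2% of all genes were called in either direction), 7 and 1 at 6 h (18.4%), and 5 and 3 at 48 h (16.5%). NFKBIZ, an inducible NF-kB cofactor gene, and RHOB, a small GTPase gene, were higher in BHLHE40-KD at all 3 times (0.68, 1.07 and 0.66 for NFKBIZ and 0.79, 1.33 and 1.13 for RHOB). DUSP5 was lower in untreated BHLHE40-KD cells (-0.97, adjusted p = 0.00673). No gene of the list was called for a difference between the lines in the 6 h or 48 h change.

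**Figure D4:**
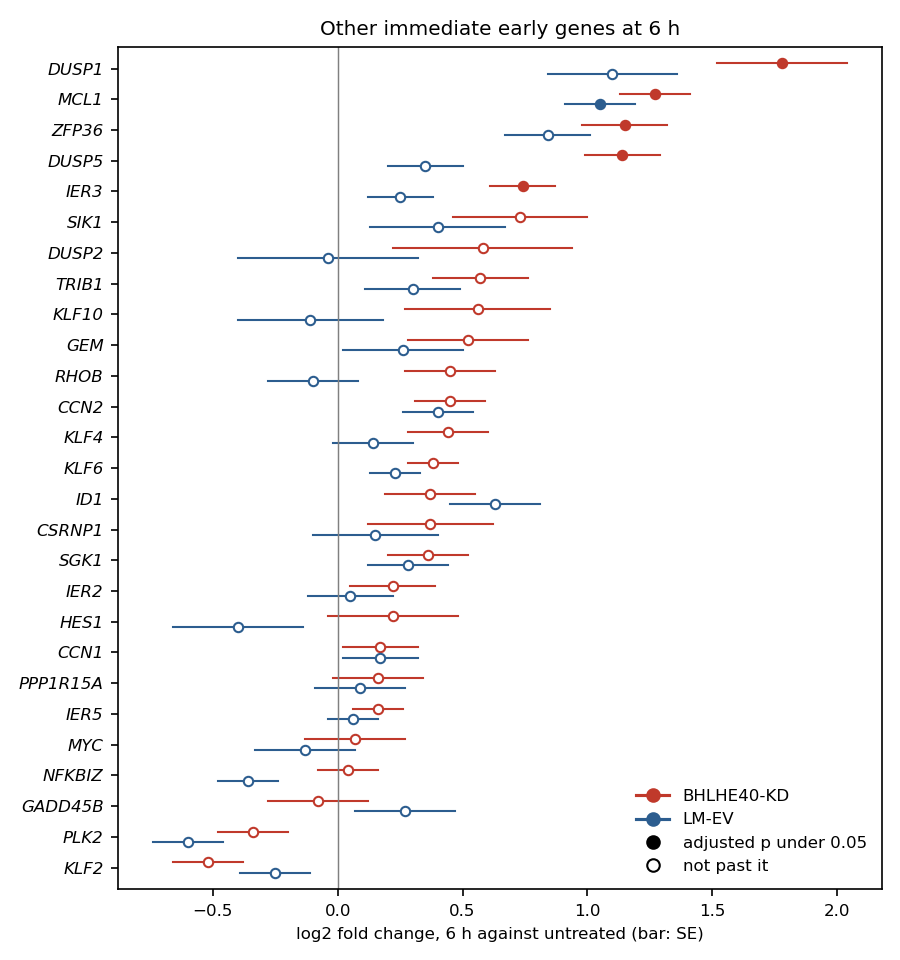
Log2 fold change at 6 h against untreated of the 27 tested genes of the list of other immediate early genes, with BHLHE40-KD above LM-EV for each gene, ordered by the BHLHE40-KD value. Bars are SEs and filled circles passed an adjusted p of 0.05. DUSP1 (1.78) leads in BHLHE40-KD, and MCL1 is called in both lines (1.27 and 1.05).

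Of 20 known AP-1 target genes, 17 were tested. At 6 h 5 rose and 0 fell in BHLHE40-KD (5.16% of all genes were called), led by the cytokine gene IL6 (2.17, adjusted p = 0.00655), the cyclooxygenase gene PTGS2 (1.48, adjusted p = 0.00655), IL11 (1.60, adjusted p = 0.0172) and LIF (1.08, adjusted p = 0.02), and 2 rose in LM-EV (0.559% of all genes were called), IL6 (1.77, adjusted p = 0.0308) and PTGS2 (1.22, adjusted p = 0.0308). The median was 0.39 in BHLHE40-KD and 0.18 in LM-EV. IL6 fell between 6 h and 48 h in both lines (-2.92 and -2.83, adjusted p = 0.00753 and 0.00956). Between the lines 5 were higher and 4 lower in untreated BHLHE40-KD cells, where 18.2% of all genes were called in either direction, and 6 were higher and 2 lower at 6 h (18.4%) and at 48 h (16.5%). PTGS2 (2.08, 2.34 and 1.62) and the secreted matrix gene SPP1 (3.47, 3.75 and 2.04) were higher in BHLHE40-KD at all 3 times, and the collagenase gene MMP1 was lower (-1.86, -1.72 and -0.50).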

How the data were processed

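Gene expression was measured in 12 RNA samples on Illumina HT-12 bead arrays, 2 for each of 6 groups of line and treatment taken from the sample labels. The deposited normalized intensities were made by the authors in GenomeStudio (version not given in the sources used here) by background subtraction and quantile normalization, and they keep a linear scale. The deposited detection p-values, exported by the authors from the same program, set a probe against its array's negative control beads. The deposited bead signal intensities were used for slide 1 alone, as an alternative, because 5 of the 6 columns of slide 2 did not follow the normalized values (rank correlation of 0.816 to 0.904, where the detection p-values had at least 0.983 in size) and 3 of them were copies of slide 1 columns.

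Normalized intensities under 16 were set to 16 (38.7% of values) before log2. Probes with a detection p under 0.05 on both arrays of some group were kept (22207), and the brightest kept probe stood for a gene, which left 12336 genes. Symbols came from the platform annotation, which names 1 gene for 30105 probes, more than 1 for 8 and no gene for 17189. The gene identifiers of 30066 probes were found in a RefSeq table, which changed 0 symbols. Fits used limma 3.58.1 in R 4.3.3 with a term for each of the 6 groups, a slide block and 11 contrasts (residual degrees of freedom 5, prior 2.43), with Benjamini-Hochberg adjustment within each over all genes. The fit was tested on simulated data. Fold changes of values near 16 are understated. An exact permutation test of 2 against 2 arrays cannot go below p = 0.333, so none is given.

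The methods of the study name 2 independent experiments, which are read here as the slides, a reading the labels do not state. The chip number in the titles is the source of the pairing. Deviations from the group means correlated between arrays of 1 slide with r from -0.008 to 0.256 over 15 pairs of groups (median 0.142, 12 over 0.1). That each array is a culture of its own is likewise not stated. The number of arrays limits the precision.

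The members and the gene lists were chosen with earlier results of these data known. Named are the 10 members, BHLHE40, up to 4 called genes of a list in a comparison (smallest adjusted p), and for each tested member the 3 genes with the highest correlation. IER3 and, in the lists with few calls, the remaining called genes were named after their values were seen. At 48 h in BHLHE40-KD all called genes of the other immediate early list are named, beyond the 4 of this rule. Alternatives covered the block, the lowest value, the detection filter, the choice of probe, the arrays in the fit, single arrays left out, the bead signals of slide 1, and the study's rule of 1.5-fold in both experiments. Columns of no sample in the tables came to 0.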

Additional observations from a re-analysis of the deposited data

Results flagged for a closer look

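The second probe of NR4A1, which entered no test, was above background on treated arrays alone, with a highest signal of 99.9. It was detected on 4 of the 8 treated arrays and on none of the 4 untreated ones. In BHLHE40-KD cells its signals on slides 1 and 2 were 34.9 and 31.3 untreated, 99.9 and 25.9 at 6 h, and 82.4 and 23.0 at 48 h, and in LM-EV cells they were 26.5 and 40.3, 52.6 and 19.3, and 45.5 and 65.7. The detected arrays were those of slide 1 in 3 cases, and in each treated group the other array was undetected. The treated arrays overlapped the untreated arrays in BHLHE40-KD at both times and in LM-EV at 6 h, but in LM-EV both 48 h arrays lay above both untreated arrays. The first NR4A1 probe was detected on no array (-3.56 to 40.0). No difference was tested for NR4A1.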

How the results depend on the processing

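No call of a member changed direction under any alternative. Of 399 values of the 21 called changes, leaving out single arrays included, 229 stayed past the threshold and 170 did not. Without the replicate block (the slide) the count of members called was 1 for BHLHE40-KD at 6 h (3 with it), 1 at 48 h (3) and 0 at 48 h against 6 h (1), 0 for LM-EV at 6 h (2), at 48 h (2) and at 48 h against 6 h (1), and 1 between the lines at 6 h (3). It moved no other count by over 1.5 times. Over all genes the calls in these comparisons, in the same order, came to 230 (636 with it), 308 (639), 99 (238), 3 (69), 75 (232), 10 (28) and 1655 (2272). With a fit of the arrays of the 2 groups alone, which leaves 1 residual degree of freedom, each of the 9 comparisons of 2 groups had 0 members called. Of all 12336 genes 0 were called in any comparison of times, so these counts say nothing particular to the members. Between the lines 403, 699 and 347 of all genes were called untreated, at 6 h and at 48 h. With a lowest value of 64 there were 4 between the lines at 48 h (2), where 2385 of all genes were called (2034). With values shifted in place of a lowest value there were 5 for BHLHE40-KD at 6 h (3), 2 at 48 h against 6 h (1) and 4 between the lines at 48 h (2). Of all genes 1072 (636), 763 (238) and 2712 (2034) were called there. With a detection p under 0.01 on all 12 arrays there were 5, 2 and 4 in the same comparisons and 4 for LM-EV at 48 h (2). Of the 9548 genes left, 1008, 740, 2252 and 740 were called there, where the main fit called 636, 238, 2034 and 232 of 12336. Without a detection filter there were 0 for LM-EV at 48 h against 6 h (1) and 1 between the lines at 6 h (3). Of 20040 genes 29 and 1702 were called there (28 and 2272 of 12336 with the filter). With every detected probe tested there was 1 for LM-EV at 6 h and 1 at 48 h (2 each), where 72 and 159 of 16819 probes were called. By the rule of 1.5-fold on both slides there were 2 for BHLHE40-KD at 48 h against 6 h (1), 4 for LM-EV at 48 h (2), 2 between untreated lines (4) and 1 for the difference in the 6 h change (0). Leaving out single arrays, where a lone array is assumed to vary like the other groups, gave 0 to 2 members for BHLHE40-KD at 6 h, 0 to 1 at 48 h and 0 to 1 at 48 h against 6 h. For LM-EV it gave 0 at 6 h, 0 at 48 h and 0 to 1 at 48 h against 6 h. Between the lines it gave 1 to 5 untreated, 0 to 3 at 6 h and 1 to 3 at 48 h, and for the differences in the change 0. In the comparisons of times within a line, each array left out also left fewer of all genes called. The causes were not tested. On the bead signals of slide 1, 83 of 88 changes lay within the spread of the main values. These signals are the same measurements before normalization (rank correlation of 1.0 with the normalized values). Their agreement is therefore no independent check. Signals under 42.2 to 51.8, such as those of FOSB at 48 h, NR4A3 and the first NR4A1 probe, are not resolved.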

Other observations

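MAP kinases and serum response factor act upstream of the immediate early genes. Of 10 tested genes of the ERK, JNK and p38 branches, 1 was called at 6 h in BHLHE40-KD, where 5.16% of all genes were, MAPK8, which encodes JNK1 (-0.77, adjusted p = 0.0429), and 0 at 6 h in LM-EV (0.559% of all genes) and 0 at 48 h in either line (5.18% and 1.88% of all genes in BHLHE40-KD and LM-EV, limma). Between the lines 1 of the 10 was called higher and 0 lower in untreated BHLHE40-KD cells, where 18.2% of all genes were called in either direction. At 6 h 1 was higher and 1 lower (18.4% of all genes), and at 48 h 1 and 2 (16.5%). MAP2K1, which encodes the ERK kinase MEK1, was the higher one untreated, at 6 h and at 48 h (0.67, 0.49 and 0.74, adjusted p = 0.00628, 0.0189 and 0.0046). MAPK8 was lower at 6 h and 48 h (-0.85 and -0.91, adjusted p = 0.0131 and 0.011), and MAPK7, which encodes ERK5, at 48 h (-0.69, adjusted p = 0.0435).

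Of 9 tested genes for serum response factor, its partners and the CREB group, 0 were called at 6 h in either line. At 6 h 5.16% of all genes were called in BHLHE40-KD and 0.559% in LM-EV. At 48 h 0 were called in BHLHE40-KD (5.18% of all genes) and 1 in LM-EV (1.88%). Between the lines 1 was higher and 1 lower in untreated BHLHE40-KD cells (18.2% of all genes), 0 were called at 6 h (18.4%) and 1 was higher at 48 h (16.5%). ELK4, a serum response factor partner, fell at 48 h in LM-EV (-0.97, adjusted p = 0.0483) and at 48 h was the higher in BHLHE40-KD (0.68 against LM-EV, adjusted p = 0.0424). In untreated BHLHE40-KD cells the cAMP-responsive CREM was lower (-0.96, adjusted p = 0.0274) and the CREB coactivator gene CRTC2 higher (0.63, adjusted p = 0.0429) than in LM-EV.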
